A study of Homo sapiens with 4 samples.

Results

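FOXP1 is a forkhead transcription factor gene on chromosome 3 (70954708 to 71583978, minus strand, 629271 bp, GRCh38). Its locus was described here through 42 of the 73135 intervals of open chromatin that were counted in the lymphoma line TMD8. An interval was taken as a member when its midpoint lay inside the gene body (41 intervals), or when FOXP1 had the nearest end of a protein-coding gene within 100 kb (1 interval, 1410 bp before the gene). The next interval on that side, chr3:71629662-71629906, was 45806 bp from FOXP1 but nearer to EIF4E3. It was not called and had 2.77 and 1.64 CPM in control and 2.71 and 3.05 CPM in shIRF4. On the other side no interval lay within 100 kb, and the nearest was 403714 bp away. All 42 intervals passed the filter on low counts.

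The data are 4 ATAC-seq libraries of TMD8, an established cell line of the activated B cell-like (ABC) type of diffuse large B cell lymphoma. In ATAC-seq, a transposase cuts and tags DNA that nucleosomes leave free. The control group is 2 libraries of cells given a scrambled short hairpin RNA (shRNA), and the shIRF4 group is 2 libraries of cells given an shRNA against IRF4, as the titles and the design text have it; the description field of these samples writes siIRF4. The sources used here do not give the hairpin sequence, the time after its delivery or whether the 2 libraries of a group came from separate cultures. The p-values therefore measure only the spread between these libraries, which may be technical. Accessibility does not measure mRNA, and these counts do not check the knockdown: the gene-end intervals of IRF4 summed to 66.6 CPM in control and 62.1 CPM in shIRF4. In a bulk library, fewer cells with an open interval and fewer cuts per cell cannot be told apart.

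Total counts lay between 9112860 and 17954924 per library, with shIRF4 replicate 2 the shallowest and shIRF4 replicate 1 the deepest. Counts of the 2 shIRF4 libraries differed more (chi-square 2.01 for each degree of freedom) than those of the 2 controls (1.04, where sampling noise alone gives 1). Of 6 B cell marker genes, 5 had an interval at a gene end, with PAX5 at 107 CPM and MS4A1 at 52.2 CPM in control, while 3 of 4 myeloid and 3 of 4 epithelial markers had none. Of 4 T cell markers, CD3D and CD2 had none and CD3E had 1.97 CPM, but CD8A had 34.9 CPM in control and 29.5 CPM in shIRF4.

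FOXP1 binds DNA through a forkhead domain and mostly represses transcription. It is required for early B cell development and is expressed at a high level in ABC lymphoma, where shorter isoforms that arise from internal starts have also been described. IRF4 is a transcription factor on which ABC lymphoma cells depend. It binds interferon-stimulated response elements (ISRE) and composite elements shared with ETS or AP-1 family factors.

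The RefSeq promoter table (GRCh38.p14) lists 6 starts for FOXP1, which are the reference points for position here. Counted downstream from the first start at 71583728, they lie at 0, 40.2, 279, 338.7, 451.5 and 518.8 kb. Of these, 4 lay inside an interval. The starts at 338.7 and 451.5 kb did not, with the nearest interval 2612 and 839 bp away. Intervals are placed on the same scale by their midpoints. Exons and introns were not told apart here. The 250 bases before a start are shown for 3 of them, because they span the range from a very open to an uncovered start; capitals mark matches to the motifs named below, and each is written 5′ to 3′ on the FOXP1 strand.
Start at 518.8 kb, chr3:71064925-71065174 (minus strand): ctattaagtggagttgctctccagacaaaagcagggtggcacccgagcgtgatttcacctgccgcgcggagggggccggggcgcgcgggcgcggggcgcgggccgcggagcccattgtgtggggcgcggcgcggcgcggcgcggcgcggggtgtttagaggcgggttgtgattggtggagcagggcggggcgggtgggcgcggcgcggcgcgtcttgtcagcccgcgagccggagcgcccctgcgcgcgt
Start at 40.2 kb, chr3:71543558-71543807 (minus strand): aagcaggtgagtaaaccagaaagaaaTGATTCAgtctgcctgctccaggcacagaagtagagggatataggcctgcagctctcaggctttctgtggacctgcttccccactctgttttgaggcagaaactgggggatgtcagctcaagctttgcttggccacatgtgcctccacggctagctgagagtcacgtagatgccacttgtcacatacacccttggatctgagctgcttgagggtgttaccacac
Start at 338.7 kb, chr3:71245078-71245327 (minus strand): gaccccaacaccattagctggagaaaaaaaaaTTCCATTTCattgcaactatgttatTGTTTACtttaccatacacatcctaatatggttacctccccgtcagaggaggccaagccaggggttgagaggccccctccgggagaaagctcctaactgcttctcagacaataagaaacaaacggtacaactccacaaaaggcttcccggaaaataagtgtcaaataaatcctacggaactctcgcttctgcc

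The start at 518.8 kb is rich in G and C (75.6%, with 41 CpG dinucleotides), against a median of 58.0% and 11 over the 35116 windows of the table. The windows at 40.2 kb (52.4%, 2 CpG) and 338.7 kb (45.2%, 6 CpG) were below that median. Both strands of the 6 FOXP1 windows were searched for 4 motifs. The ISRE core GAAANNGAA was found in 1 window, the uncovered start at 338.7 kb, 218 to 210 bases before the start and on the opposite strand; 6.88% of all windows held it. The same window held the forkhead site TGTTTAC, 193 to 187 bases before the start (2.98% of all windows). The AP-1 site TGANTCA was found in the window at 40.2 kb, 224 to 218 bases before the start and just outside the interval there (6.57% of all windows). The ETS-IRF core GGAANNGAA, which can overlap the ISRE core, was in none of the 6 (6.58% of all windows). A match in letters is a description and not a bound site.

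The comparison of shIRF4 with control asks how open each part of the locus was after IRF4 silencing. Values are CPM, read counts scaled to a common library size with TMM factors. An interval is said to fall or rise where its adjusted p was under 0.05 in the edgeR quasi-likelihood test over all intervals. Of the 42 FOXP1 intervals, 9 fell (21.4%), 4 rose (9.52%) and 29 were not called. Over all 73028 tested intervals 15.5% fell and 7.26% rose, so the shares at FOXP1 lay near those of all intervals in both directions. The median log2 fold change was -0.01 at FOXP1 and 0.01 over all intervals. Both shIRF4 libraries lay below both controls at 15 FOXP1 intervals (35.7%, against 30.3% of all) and above them at 10 (23.8%, against 28.7%).

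**Figure D1:**
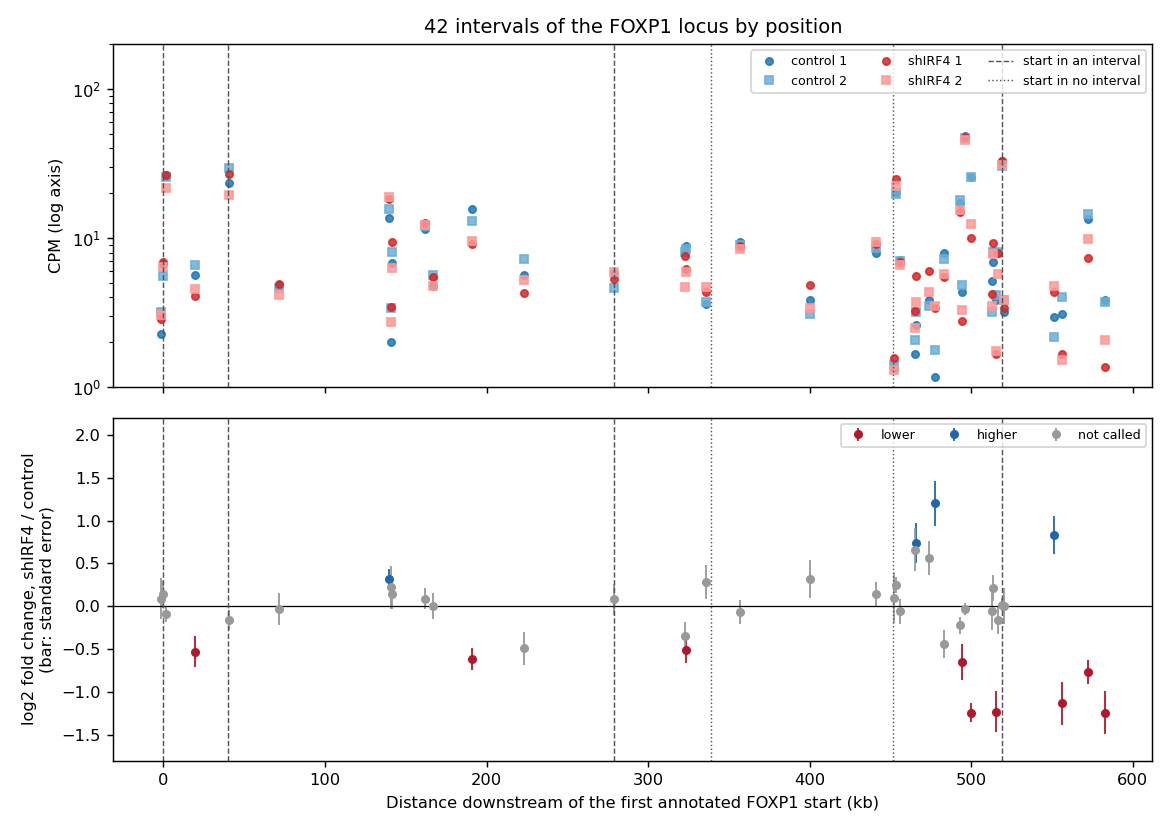
Each of the 42 FOXP1 intervals is plotted by its distance downstream of the first annotated start (kb, horizontal axis). Upper panel: CPM of each library on a log axis; lower panel: log2 fold change of shIRF4 over control with its standard error, coloured by call; dashed and dotted vertical lines mark starts inside and outside an interval. Of the 9 intervals that fell, 6 lie at 400 to 600 kb, where 24 of the 42 intervals are.

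The counts depended on the test and the library, at FOXP1 and over all intervals alike. Over all intervals, calls in both directions were fewer when a control library or shIRF4 replicate 1 was left out. They were more numerous without shIRF4 replicate 2, and the counts at FOXP1 moved the same way. With a library left out, its group is a single library, so the spread comes from the other group's pair alone. Leaving out control replicate 1 or shIRF4 replicate 1 gave 7 lower and 2 higher, leaving out control replicate 2 gave 6 and 3, and leaving out shIRF4 replicate 2, the shallowest library, gave 11 and 7. DESeq2 called 2 of the 42 lower and 0 higher, where it called 5.07% of all intervals lower and 1.17% higher; at an unadjusted p under 0.05 it had 6 lower and 2 higher. Tested against a 1.5-fold change, 2 were lower and 0 higher (3.31% and 0.639% of all intervals), with 5 and 2 at an unadjusted p under 0.05. Scaling by library totals alone gave 8 lower and 7 higher at FOXP1, and moved the split over all intervals from 11338 lower and 5301 higher to 9926 and 7181.

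The strongest fall at FOXP1 lay inside the gene, 499.8 kb downstream of the first start, at chr3:71083562-71084366. Control libraries had 25.8 and 25.7 CPM and shIRF4 libraries 10.04 and 12.4 CPM. Both shIRF4 libraries lay far below both controls, and the shIRF4 pair was less alike than the control pair. The log2 fold change was -1.24 (SE 0.11, 95% interval -1.46 to -1.01, adjusted p = 2.96e-08, edgeR), a level in shIRF4 of 0.363 to 0.496 times that in control. This interval was called lower in each of 14 alternative fits, with a log2 fold change between -1.36 and -1.04. Among the 42 intervals it was the densest per length in control (32.0 CPM per kb). It lies inside the long noncoding RNA gene LOC124906247.

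Of its 3 nearest neighbours on one side, 1 passed the test. The next interval, chr3:71086956-71088604, starts 2589 bp further on, in the same noncoding gene, and is the most open of the locus. It had 48.0 and 46.9 CPM in control and 47.3 and 45.5 CPM in shIRF4, so that the groups overlapped. Its change was -0.03 (SE 0.07, 95% interval -0.17 to 0.12, adjusted p = 0.823, edgeR), which in that fit is 0.888 to 1.08 times control. The SE was 0.13 in DESeq2, so the width of this bound depends on the test. The small interval after it, chr3:71089334-71089773, went from 4.36 and 4.84 CPM to 2.77 and 3.27 CPM and fell by 0.65 on the log2 scale (SE 0.21, adjusted p = 0.0287, edgeR). That call was lost without control replicate 1 (-0.71, adjusted p = 0.0715), control replicate 2 (-0.56, adjusted p = 0.215) or shIRF4 replicate 1 (-0.48, adjusted p = 0.284). The last of this group, chr3:71090101-71090980, had 17.1 and 18.1 CPM in control and 14.9 and 15.4 CPM in shIRF4 and did not pass (-0.22, adjusted p = 0.132, edgeR).

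Around the last start, at 518.8 kb, the start itself and its flank also differed in their calls. The interval that holds this start, chr3:71063875-71065707, had 32.8 and 30.2 CPM in control and 32.8 and 30.9 CPM in shIRF4 (0.02, SE 0.08, 95% interval -0.14 to 0.19, adjusted p = 0.873, edgeR). In DESeq2 the SE of this change was 0.148. At 515.5 kb, chr3:71068090-71068367 had 3.86 and 4.17 CPM in control and 1.68 and 1.75 CPM in shIRF4, which are both less than each control. It fell by 1.23 (SE 0.24, 95% interval -1.73 to -0.74, adjusted p = 0.000515, edgeR) and kept its call without any single library. Of the 9 intervals between 490 and 520 kb, 3 fell (33.3%) and 6 were not called. Over the genome, 17.6% of intervals inside protein-coding genes but not at gene ends fell and 7.77% rose. The stretches set apart here and below were chosen after their values were seen, so their counts are only a description.

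Beyond the last start, towards the 3′ end of the gene, 3 of 5 intervals fell (60%, against 17.6% inside genes) and 1 rose (20%, against 7.77%). The interval at 583.0 kb, chr3:71000559-71000805, is the one nearest the 3′ end. Its values were 3.86 and 3.72 CPM in control and 1.36 and 2.07 CPM in shIRF4, a change of -1.24 (SE 0.25, adjusted p = 0.000945, edgeR). Without shIRF4 replicate 1, the lower of the 2, it was -0.86 and not called (adjusted p = 0.0856). At 572.4 kb, chr3:71010805-71011897 had 13.5 and 14.4 CPM in control and 7.33 and 9.93 CPM in shIRF4. This change of -0.76 (SE 0.14, adjusted p = 0.000298, edgeR) was the other one that DESeq2 called (-0.72, adjusted p = 0.0341). It was -0.49 without shIRF4 replicate 1 (adjusted p = 0.0393). Leaving out the other shIRF4 library gave -0.93. At 556.4 kb, chr3:71027154-71027423 had 3.10 and 4.02 CPM in control and 1.68 and 1.53 CPM in shIRF4 (-1.13, SE 0.25, adjusted p = 0.00200, edgeR).

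The rise in this stretch came 4444 bp after that fall. At 551.6 kb, chr3:71031868-71032334 had 2.94 and 2.16 CPM in control and 4.34 and 4.80 CPM in shIRF4, with both shIRF4 libraries above both controls. It rose by 0.83 (SE 0.22, adjusted p = 0.00877, edgeR), and without control replicate 2 by 0.62, which was not called (adjusted p = 0.177).

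Between 450 and 490 kb, 2 of 8 intervals rose (25%, against 7.77% inside genes) and 6 were not called. At 477.5 kb, chr3:71106115-71106437 had 1.17 and 1.79 CPM in control and 3.42 and 3.49 CPM in shIRF4. This was the largest rise of the locus (1.197, SE 0.26, 95% interval 0.66 to 1.74, adjusted p = 0.00168, edgeR), from a control level that only 0.868% of all intervals fell below. At 465.8 kb, chr3:71117694-71118074 had 2.60 and 3.20 CPM in control and 5.54 and 3.71 CPM in shIRF4, where the 2 shIRF4 libraries lay far apart. Its rise of 0.74 (SE 0.23, adjusted p = 0.0198, edgeR) was 0.36 without shIRF4 replicate 1 (adjusted p = 0.495) and 0.60 without control replicate 1 (adjusted p = 0.156), and neither was called. In the same stretch chr3:71100151-71100735, at 483.3 kb, went from 7.89 and 7.29 CPM to 5.48 and 5.78 CPM and just missed the threshold (-0.44, adjusted p = 0.0516, edgeR).

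**Figure D2:**
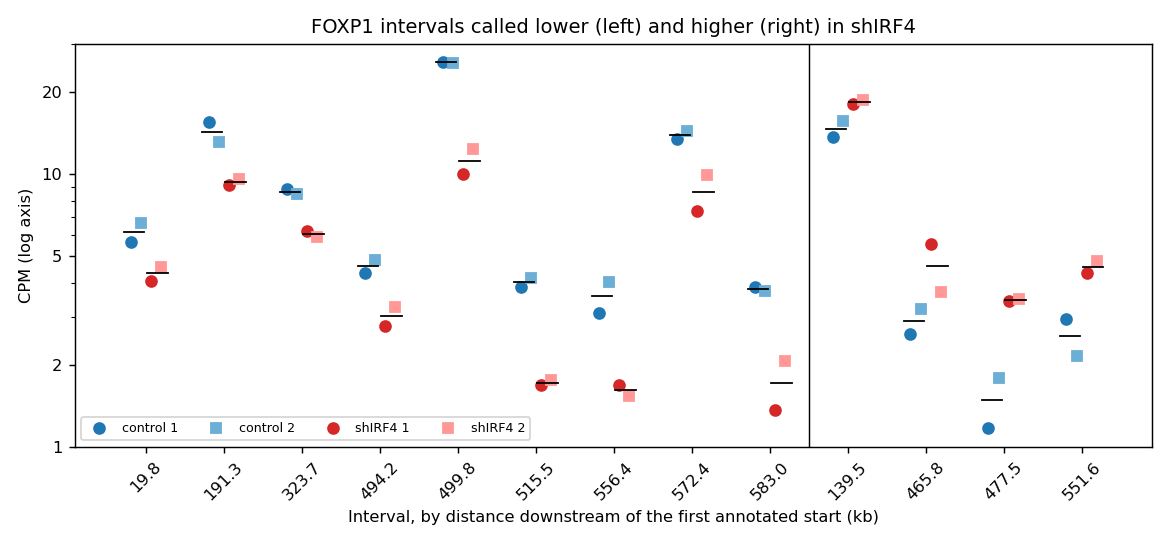
CPM of each library (log axis) at the 9 intervals called lower (left of the line) and the 4 called higher (right), named on the horizontal axis by distance downstream of the first start (kb); black bars are group means over 2 libraries. At 499.8 kb the controls are at 25.8 and 25.7 CPM and the shIRF4 libraries at 10.04 and 12.4 CPM, and 3 of the 4 intervals that rose start from under 4 CPM.

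Up to 400 kb downstream of the first start, 18 intervals, 1 of them before the gene, held 3 falls (16.7%) and 1 rise (5.56%). The clearest was at 191.3 kb, chr3:71392078-71392774, with 15.6 and 13.1 CPM in control and 9.17 and 9.60 CPM in shIRF4. It fell by 0.61 (SE 0.13, 95% interval -0.88 to -0.35, adjusted p = 0.000993, edgeR) and kept its call without any single library. The rise was at 139.5 kb, chr3:71443802-71444561, from 13.7 and 15.7 CPM to 18.2 and 18.8 CPM (0.32, SE 0.11, adjusted p = 0.0297, edgeR). It was not called without control replicate 1 (0.23, adjusted p = 0.332) or shIRF4 replicate 1 (0.36, adjusted p = 0.0766). The other two falls were the smallest of the locus. At 323.7 kb, chr3:71259707-71260349 went from 8.81 and 8.48 CPM to 6.19 and 5.89 CPM (-0.51, SE 0.15, adjusted p = 0.0175, edgeR). At 19.8 kb, chr3:71563656-71564185 went from 5.62 and 6.62 CPM to 4.07 and 4.58 CPM (-0.53, SE 0.18, adjusted p = 0.0395, edgeR). Although the groups do not overlap at either, both calls were lost without control replicate 1 (-0.48 and -0.64, adjusted p = 0.124 and 0.0629), control replicate 2 (-0.53 and -0.40, adjusted p = 0.0795 and 0.357) or shIRF4 replicate 1 (-0.54 and -0.41, adjusted p = 0.0787 and 0.290). The call at 19.8 kb was lost in 9 of 14 alternative fits, also with library totals (adjusted p = 0.0592), offsets fitted to abundance (adjusted p = 0.0551), the replicate block (adjusted p = 0.0604) and the control pair as 1 sample (adjusted p = 0.074). The interval at 323.7 kb kept its call in those 4.

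Several other intervals lay close to the threshold on either side of 0. At 474.2 kb, between the 2 intervals that rose, chr3:71109272-71109875 had 3.86 and 3.50 CPM in control and 5.97 and 4.36 CPM in shIRF4 (0.56, SE 0.20, adjusted p = 0.0512, edgeR). At 465.2 kb, chr3:71118453-71118697 had 1.68 and 2.08 CPM in control and 3.26 and 2.51 CPM in shIRF4 (0.66, SE 0.25, adjusted p = 0.0652, edgeR). In both, the shIRF4 libraries were above the controls, with replicate 1 the higher. At 222.9 kb, chr3:71360616-71361118 had 5.62 and 7.29 CPM in control and 4.29 and 5.24 CPM in shIRF4 (-0.49, SE 0.19, adjusted p = 0.0615, edgeR). Further from the threshold, next to the fall at 323.7 kb, chr3:71260633-71261211 had 8.56 and 8.03 CPM in control and 7.55 and 4.69 CPM in shIRF4. There the shIRF4 libraries lay far apart (-0.35, adjusted p = 0.167, edgeR). At 161.8 kb, chr3:71421505-71422297 was bounded more closely. It had 11.5 and 12.1 CPM in control and 12.7 and 12.3 CPM in shIRF4 (95% interval of the log2 fold change -0.15 to 0.34). The nearest interval to the uncovered start at 338.7 kb, chr3:71247689-71248059, had 3.61 and 3.72 CPM in control and 4.34 and 4.69 CPM in shIRF4 (0.28, SE 0.20, adjusted p = 0.339, edgeR).

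At the starts of FOXP1 no change passed the test. None of the 4 intervals that hold an annotated start was called by edgeR or DESeq2, and none had an unadjusted p under 0.05 by either. Across the genome 4.77% of the 10912 intervals with an annotated start fell and 4.97% rose, against 17.4% and 7.66% of the intervals without one, so 0 of 4 is near what starts show in general. Without a start, 9 of 38 FOXP1 intervals fell (23.7%) and 4 rose (10.5%).

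At the first start, the gene-end interval chr3:71583537-71584047 had 6.71 and 5.58 CPM in control and 6.89 and 6.44 CPM in shIRF4 (0.14, SE 0.16, 95% interval -0.20 to 0.48, adjusted p = 0.608, edgeR). Just inside the gene, chr3:71581405-71583428 was among the 5 most open, with 26.3 and 25.7 CPM in control and 26.3 and 21.7 CPM in shIRF4 (-0.09, SE 0.09, adjusted p = 0.543, edgeR). The start at 40.2 kb lay in chr3:71542356-71543762, where the libraries of each group were far apart: 23.4 and 29.4 CPM in control and 26.8 and 19.3 CPM in shIRF4. Its change of -0.16 (SE 0.12, 95% interval -0.40 to 0.09) was not called (adjusted p = 0.383, edgeR). Without shIRF4 replicate 1 it was -0.45, in a fit whose spread comes from the control pair alone, while leaving out control replicate 2 gave 0.01. The hairpin of the microRNA gene MIR1284 lies next to this interval, and no interval covers it. The start at 279 kb lay in chr3:71304738-71305338, which also overlaps the antisense gene FOXP1-AS1; it had 5.87 and 4.61 CPM in control and 5.32 and 5.89 CPM in shIRF4 (0.08, SE 0.18, 95% interval -0.29 to 0.46, adjusted p = 0.795, edgeR).

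**Figure D3:**
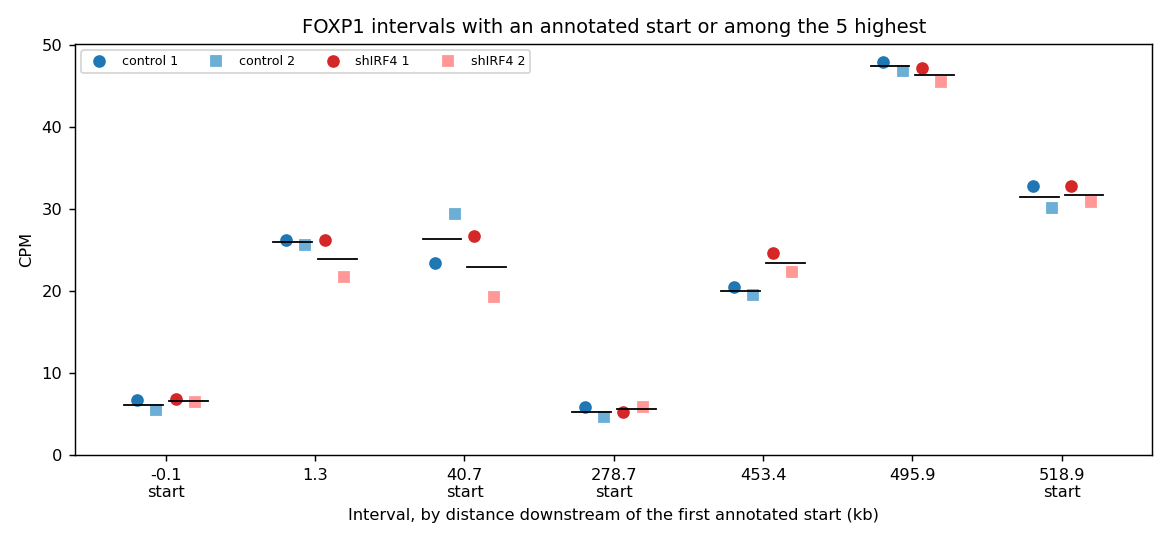
CPM of each library (linear axis from 0) at the 4 intervals that hold an annotated start (marked) and the 3 others among the 5 most open, named by distance downstream of the first start (kb); black bars are group means over 2 libraries. None was called, where edgeR called 15.5% of all intervals lower and 7.26% higher. At 495.9 kb all 4 libraries lie between 45.5 and 48.0 CPM.

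The uncovered start at 451.5 kb has as its nearest interval the small chr3:71131198-71131358, with 1.34 and 1.41 CPM in control and 1.57 and 1.31 CPM in shIRF4 (0.10, adjusted p = 0.843, edgeR). The one after it, chr3:71129557-71131087, is among the 5 most open. It had 20.5 and 19.6 CPM in control and 24.7 and 22.4 CPM in shIRF4, both above both controls, but did not pass (0.25, SE 0.09, adjusted p = 0.0620, edgeR). It was called higher without shIRF4 replicate 2 (0.30, adjusted p = 0.0137) and when libraries were scaled by their totals (0.29, adjusted p = 0.0284). The 5 most open intervals together held 37.3% of the reads in FOXP1 intervals in control and 39.9% in shIRF4. None of the 5 was called by edgeR or DESeq2, with 1 at an unadjusted p under 0.05 by edgeR and 0 by DESeq2. Over all intervals edgeR called 15.5% lower and 7.26% higher, and DESeq2 5.07% and 1.17%. With only 5 intervals, the absence of a call does not set them apart from those shares. Outside the gene, the interval chr3:71585287-71585490 lies in the divergent noncoding gene FOXP1-DT and had 2.27 and 3.20 CPM in control and 2.88 and 3.05 CPM in shIRF4 (0.09, adjusted p = 0.832, edgeR).

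Summed over the locus, the difference in reads did not pass the test. The 42 intervals summed to 402 and 409 CPM in control and to 387 and 360 CPM in shIRF4, with both shIRF4 libraries below both controls. When counts were summed per gene and all 16179 genes were fitted, FOXP1 had a log2 fold change of -0.13 (SE 0.05, 95% interval -0.25 to -0.02, adjusted p = 0.0900, unadjusted p = 0.0233, edgeR), where 13.6% of genes were lower. It was called lower without shIRF4 replicate 1 (-0.184, adjusted p = 1.89e-05) and when shIRF4 replicate 2 was left out (-0.093, adjusted p = 0.0184). In those fits the single shIRF4 library is assumed to vary like the control pair, whose counts were the more alike, so both p-values rest on the spread of the controls. Without a control it was not called (-0.148, adjusted p = 0.437, and -0.122, adjusted p = 0.545). With offsets fitted to abundance it was -0.005.

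Within that sum, the calls split the reads as follows; the classes were set by the same values, so this is a description. The 9 intervals that fell summed to 84.8 ± 0.386 CPM in control and 47.7 ± 4.78 CPM in shIRF4 (SD, n = 2). They made up 20.9% of the reads in FOXP1 intervals in control and 12.8% in shIRF4. The 4 that rose went from 21.6 ± 1.74 to 31.2 ± 0.548 CPM (SD, n = 2). The 29 not called had 299 ± 3.16 CPM in control and 294 ± 23.0 CPM in shIRF4 (SD, n = 2), and their spread in shIRF4 is the larger. Their log2 fold changes ran from -0.49 to 0.66, with 12 negative and 17 positive.

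**Figure D4:**
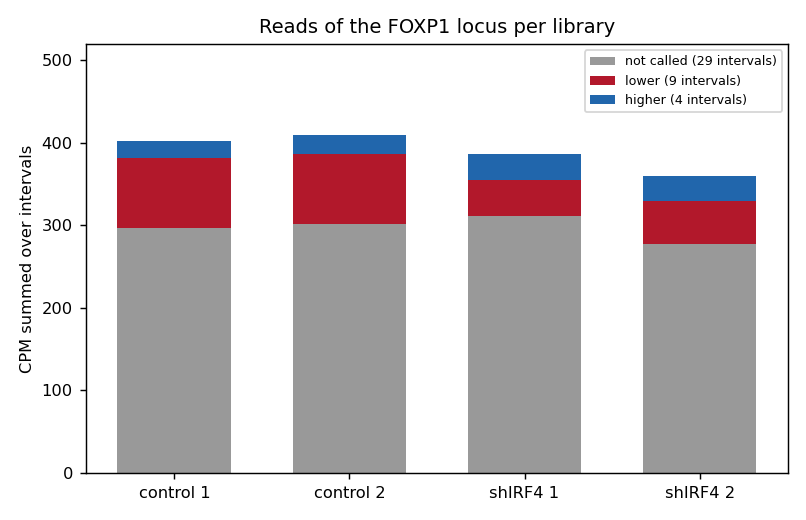
CPM summed over the FOXP1 intervals in each library (bars start at 0), divided into the 29 intervals not called, the 9 called lower and the 4 called higher. The 9 lower intervals sum to 84.6 and 85.1 CPM in the controls and to 44.3 and 51.1 CPM in shIRF4.

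Among the 238 genes with at least 20 intervals, FOXP1 included, the median share of lower intervals was 19.3% and of higher ones 5.63%. A larger share of lower intervals than at FOXP1 was found at 110 genes, and a larger share of higher ones at 83. Of these genes, 165 had both a lower and a higher interval, as FOXP1 did. When intervals under the count filter were counted too, 238 other genes had at least 20 intervals, and those with summed reads most like FOXP1 across the 4 libraries were ARID5B, ZCCHC7 and FAM107B. Their Euclidean distances to FOXP1 in log2 CPM, centred per gene, were 0.00421, 0.0127 and 0.0176. With 4 libraries this likeness is a description. ARID5B had 7 of 32 intervals lower and 3 higher, and its sum of -0.13 did not pass (adjusted p = 0.106, edgeR).

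On chromosome 3, the 1 Mb on either side of the FOXP1 intervals held 51 intervals, of which 15 were lower (29.4%, against 15.4% on the whole chromosome) and 2 higher (3.92%, against 7.43%). Within 2 Mb, 22.4% of 85 were lower. At EIF4E3, an initiation factor gene and the nearest protein-coding neighbour before FOXP1, none of 7 was called by edgeR or DESeq2, and none had an unadjusted p under 0.05. Beyond the 3′ end of FOXP1, 4 of 5 intervals at MDFIC2 were lower, by 1.57 (SE 0.19) at the strongest. These 4 lay outside MDFIC2, 12173 to 44967 bp from its nearest end. Before FOXP1, at RYBP, which encodes a Polycomb protein, 1 of 9 was lower, inside the gene. Another 2 were higher, 63984 and 90959 bp outside it. At SHQ1 1 of 5 was lower, more than 1 Mb from the FOXP1 intervals. Of the 44 intervals in the 1 Mb before FOXP1, 11 were lower (25%), most of them not at the genes named here. GPR27 had no interval, and neither the interval at PROK2 nor that at MITF was called.

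The other FOXP genes and genes described as targets or effectors of FOXP1 in B cells were read in the same fit. At FOXP2, 1 of 7 intervals was lower (-0.67, SE 0.11, adjusted p = 8.4e-05, edgeR), and at FOXP4 2 of 12 were higher (0.51 and 0.84), which are 5.26% and 10.5% of the 19 intervals of both genes. These called intervals all lay outside their gene, 7514 to 34232 bp from its nearest end. FOXP3 had no interval. Of 12 target or effector genes 11 had intervals; 11 of these 55 intervals were higher (20%), at 6 genes, and 5 were lower (9.09%), at 3 genes, with a median log2 fold change of 0.13. Over all intervals 7.26% were higher and 15.5% lower, with a median of 0.01. The list was chosen with earlier results of these data known, and 5 of its 11 higher intervals lay at S1PR2. These shares are therefore a description and do not show an excess. The proapoptotic genes HRK and BIK had 2 of 8 and 1 of 5 higher, with a rise in HRK from 30.0 and 30.4 CPM to 42.6 and 42.2 CPM (0.49, SE 0.08, adjusted p = 4.74e-05, edgeR). S1PR2, a receptor gene, had 5 of 8 higher, all outside the gene. The gene-end interval of EAF2, which encodes an elongation factor partner, rose from 36.9 and 38.8 CPM to 47.2 and 41.6 CPM (0.24, SE 0.08, adjusted p = 0.0267, edgeR). CD74, the invariant chain gene of MHC class II, and HLA-DRA had 1 higher each, and HLA-DRB1 had 1 lower; reads in HLA genes are less certain to be placed. AIM2, a DNA sensor gene, and XBP1, a plasma cell factor gene, had 2 lower each. The called intervals of XBP1, HLA-DRA and HLA-DRB1 lay outside the gene, 2048 to 28747 bp from its nearest end. Those of AIM2, HRK, BIK and CD74 lay inside it. The higher calls of this list were 3 without control replicate 2, 7 without control replicate 1, 2 without shIRF4 replicate 1 and 1 in DESeq2 (1.17% of all intervals), while the lower ones were 4, 3, 2 and 1. With library totals or with offsets fitted to abundance 13 were higher. The 9 intervals at PRDM1 and the 2 at RAG1 were not called, and RAG2 had no interval.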

How the data were processed

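Reads were counted by the authors per merged peak with featureCounts 2.0.0, per the file headers: raw read counts, each read reduced to its 5′ end, duplicates ignored, fractions of multi-mapping reads requested. All counts were whole numbers. Per the submitters' processing notes the genome build was hg38. For the aligner, the caller of peaks and any shift for the transposase, the method is not given in the sources used here. Ignoring duplicates can cap short, densely read intervals, more so in a deeper library.

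Samples were grouped by title. Counts were tested with edgeR 4.0.16 (filterByExpr, TMM factors 0.981 to 1.03, quasi-likelihood F-test, group as the only term, two-sided, Benjamini-Hochberg over 73028 intervals, 107 removed) in R 4.3.3. The SE is the size of the log2 fold change divided by the square root of F. DESeq2 1.42.0, limma-voom (limma 3.58.1), other scalings, filters, assignments and left-out libraries were alternatives. Genes and starts came from RefSeq tables (GRCh38.p14). A gene-end interval has its midpoint within 1 kb of either gene end.

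Values per library are given for every called interval (at most 10 per direction), the gene-end interval, the 5 of highest mean CPM and those at the edge of the membership rule; a few others, and the stretches of the gene set apart, were chosen after their values were seen. The members and lists were chosen with earlier results of these data known.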

Additional observations from a re-analysis of the deposited data

How the results depend on the processing

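Of the 9 lower and 4 higher FOXP1 intervals, DESeq2 called 2 and 0, a test against a 1.5-fold change 2 and 0, and assignment to the nearest gene end, which leaves out most of the gene body, 4 and 1. Library totals alone gave 7 higher. Leaving out 1 library gave 6 to 11 lower and 2 to 7 higher. Calls over all intervals moved in the same directions when a library was left out. The cause was not tested.

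The summed reads (-0.134) passed in limma-voom (-0.136, adjusted p = 0.0484) and, in edgeR, by nearest gene end (-0.236, adjusted p = 0.00839). The sum by nearest gene end leaves out most of the gene body, so it is not the same set of intervals. With 1 library left out, the summed change ranged from -0.184 to -0.093. Some intervals that were not called changed sign between fits. With 1 library left out, the start at 518.8 kb ranged from -0.04 to 0.08 and that at 279 kb from -0.09 to 0.26. The interval at 1.3 kb ranged from -0.25 to 0.01. At the start at 40.2 kb the change depended on single libraries, with -0.45 without shIRF4 replicate 1 and 0.01 without control replicate 2. The interval at 495.9 kb changed sign with library totals (0.02). None of the 13 called intervals changed sign in the 14 alternative fits.

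Replicate numbers did not pair the libraries: deviations from the group means correlated at r = -0.0262 between libraries of equal number, over intervals. With the replicate block, 8 intervals were lower and 4 higher, and the summed change was -0.136 (adjusted p = 0.158). The shallowest library had a median of 50.5 counts per FOXP1 interval, which limits the precision at the low ones.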
